A study of Mus musculus with 68 samples.

Results

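A set of 10 genes for the synthesis, breakdown and sensing of retinoic acid was followed through the zones of the mouse growth plate, out of the 23420 gene symbols in the count table. They are the retinal-oxidising enzymes Aldh1a1, Aldh1a2 and Aldh1a3, the retinol-oxidising enzyme Rdh10, the retinoic acid-degrading enzyme Cyp26b1, the retinoic acid receptors Rara, Rarb and Rarg, and the retinoid X receptors Rxra and Rxrb. The set was selected on measured values: Aldh1a3 was chosen by its counts in hypertrophic against proliferative zone at P2, and the others were listed beside it as genes of the same pathway. The zone values of Aldh1a3 are therefore a description with no test.

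Retinoic acid is made from vitamin A in 2 oxidations, retinol to retinal by retinol dehydrogenases such as Rdh10, then retinal to retinoic acid by the Aldh1a enzymes, and cytochromes of the Cyp26 family inactivate it. It enters the nucleus, where retinoic acid receptors paired with retinoid X receptors bind DNA and recruit corepressors without ligand and coactivators with it. In the growth plate, retinoid signalling is known to bear on chondrocyte maturation, and excess vitamin A is known to close growth plates early in animals.

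The libraries came from growth plate cartilage of mixed-background mice aged 2 (P2), 3 (P3) or 28 days (P28) after birth, with no treatment given in the labels. Reserve chondrocytes of the resting zone, dividing cells of the proliferative zone and enlarged cells of the hypertrophic zone were cut out of 10 micron sections by laser capture, and full-length cDNA was made by SMART-seq2. Of 68 libraries, 51 were ethanol-fixed P2 or P28 sections, 14 were xylene-fixed P28 sections of 2 animals, and 3 were ethanol-fixed sections of 1 P3 animal. Libraries held 748 to 3347722 counts, and 26 of the 51 reached the 100000 counts required for testing; they were added up into 21 sums of 1 animal and zone each, with 4 P2 animals and 3 P28 animals for each zone. Zones were compared within animals, and P2 animals C, E and F had only 1 tested zone each. The tested P2 zone differences therefore rest on animals A, D and G. Captures mix cells, so fewer expressing cells and less RNA per cell cannot be told apart.

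Several libraries stand apart. All 5 cartilage markers, among them Col2a1 and Acan, had counts in every group of sums, and Pecam1, Cdh5 and Kdr of endothelium were at 0 in 3 of the 6 groups. The P28 animal A resting sum held 8159 normalised CPM of Col10a1, the collagen of hypertrophic cells, against 10.1 and 27.2 in animals B and D. The xylene-fixed library labelled P28 hypertrophic replicate 3 held 32.9 CPM of Col10a1 and 0 of Ihh, against 9601 to 72298 CPM of Col10a1 in the other 4 of its group. The resting sum of P2 animal G held 128 Xist counts and 747 counts of 4 Y-linked genes, so it may hold more than 1 animal. The zones of P28 animal D may not share 1 animal: its proliferative sum held 267 Xist and 4 Y-linked counts, its hypertrophic sum 2 and 179, and its resting sum 0 and 76. A pool of animals is possible for P2 animal D and for P28 animal B, since the label of each speaks of more than 1. The resting and hypertrophic sums of P28 animal A came from libraries whose labels differ by a trailing number, so they may not share an animal.

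The Aldh1a genes are close relatives, and a stretch of each coding sequence shows how far reads can be told apart. The stretch below surrounds the active site, with the codons of 2 neighbouring cysteines, the catalytic one among them, in capitals; it was taken from the longest reading frame of a GENCODE M21 transcript of each gene.
Aldh1a1: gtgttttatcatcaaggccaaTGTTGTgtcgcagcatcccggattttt
Aldh1a2: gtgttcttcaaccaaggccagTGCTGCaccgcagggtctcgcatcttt
Aldh1a3: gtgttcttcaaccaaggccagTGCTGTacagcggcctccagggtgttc
Aldh1a2 and Aldh1a3 are identical over the first 26 of these bases and differ after them. Over whole aligned coding sequences, identity was 68.15% between Aldh1a1 and Aldh1a3 and 69.86% between Aldh1a2 and Aldh1a3. The longest run of identical bases was 26, between Aldh1a2 and Aldh1a3. Among the receptors, identity ran from 72.96% to 77.92%, with no identical run over 29 bases.

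Aldh1a3, on chromosome 7 at 66390890 to 66427517 of GRCm38 on the minus strand, shared no exon bases with another annotated gene. The same held for the other members except Rarb on chromosome 14 (16430839 to 16819156, minus strand), whose exons share 2020 bases with Top2b and Gm48162. Since the libraries carry no strand information, Rarb counts are uncertain.

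Aldh1a3 was high in the hypertrophic zone of every animal at both ages and at or near 0 in the other zones at P2. Levels are counts per 1000000 (CPM) scaled by TMM normalization to the effective size of each sum, called normalised CPM. At P2 the hypertrophic sums of animals A, C, D and G held 987, 259.6, 1468 and 966 normalised CPM, from 104, 18, 596 and 2022 counts. The proliferative sums of animals A, D and G held 0, and that of animal E held 6.78, which was 1 count. The resting sums of animals A, D and F held 0, and that of animal G held 0.179, also 1 count. No hypertrophic sum overlapped any sum of another zone at P2.

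At P28 the hypertrophic sums of animals A, B and D held 1454, 1523 and 1451 normalised CPM of Aldh1a3. These close values depend on the scaling, since on the totals of the sums they were 1490, 1153 and 275.7 CPM. The proliferative sums held 37.6, 13.6 and 10.8, from 16, 12 and 5 counts. The resting sum of animal A held 52.9, from 10 counts, and those of animals B and D held 0. Here too the hypertrophic sums lay above every other sum, but all 3 proliferative sums had counts, as 1 of 4 had at P2.

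**Figure D1:**
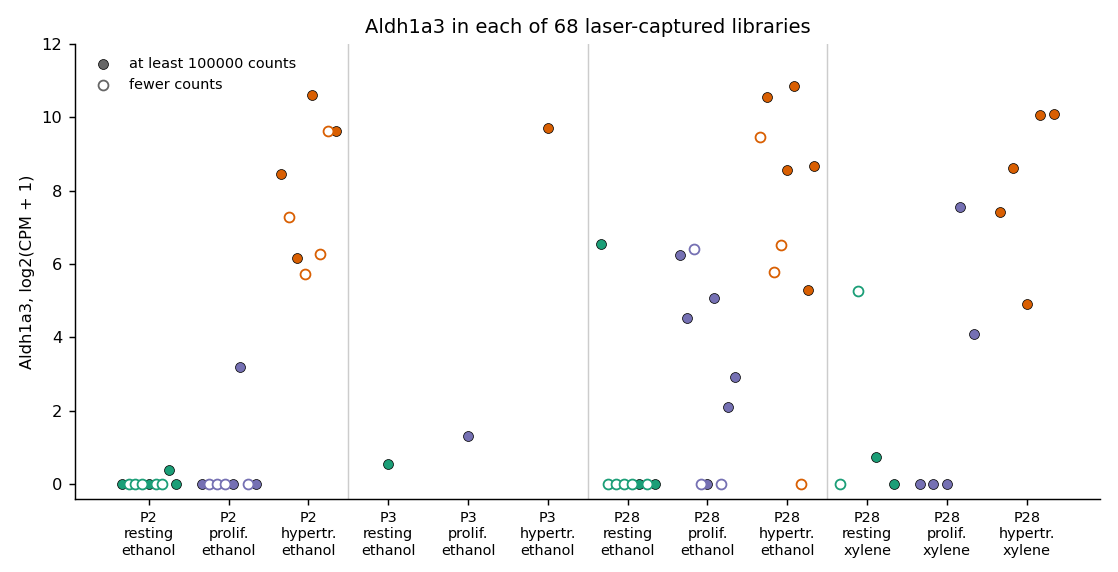
Aldh1a3 in each of 68 libraries, as log2(CPM + 1) of the library total (vertical axis), by age, zone and fixation (horizontal axis); filled points are libraries of at least 100000 counts and open points shallower ones. Of 23 hypertrophic libraries 22 hold a count, and the filled hypertrophic points mostly lie highest, but at P28 they run down to 38.5 CPM, below a proliferative library at 75.2 CPM and a resting one at 92.1 CPM.

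Over group means, the order of Aldh1a3 levels ran from P28 hypertrophic (1476 ± 40.9 normalised CPM, SD, n = 3) and P2 hypertrophic (920.1 ± 497.8, n = 4) to P28 proliferative (20.7 ± 14.7, n = 3), P28 resting (17.6 ± 30.5, n = 3), P2 proliferative (1.70 ± 3.39, n = 4) and P2 resting (0.0447 ± 0.0895, n = 4). The ranges of neighbours in this order overlapped everywhere except between P2 hypertrophic and P28 proliferative. In pooled counts, hypertrophic against proliferative gave a ratio of 4625 at P2 (2740 against 1 count, 95% interval 829 to 182728) and 79.4 at P28 (1257 against 33 counts, interval 56.2 to 116). Resting against hypertrophic gave 0.0105 at P28 (10 against 1257 counts, interval 0.00503 to 0.0194). These intervals cover counting error only and leave out the spread between animals.

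The normalization matters for the size of these levels. In the hypertrophic sum of P28 animal D, 81.0% of counts were of Rn45s, the ribosomal precursor, and its TMM factor was 0.191, so 275.7 CPM of the total became 1451 normalised CPM. The factors of the P2 hypertrophic sums of animals A and C were also low, at 0.361 and 0.278. On library totals, the hypertrophic libraries of at least 100000 counts ran from 71.2 to 1573 CPM with a median of 567 at P2 (4 libraries), and from 38.5 to 1866 with a median of 405.4 at P28 (5 libraries). Both deposit sets of libraries, those with a coded description and those without, held the contrast: P2 animal G and P28 animal D, of the second set, had 966 and 1451 in hypertrophic against 0 and 10.8 normalised CPM in proliferative zone.

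Libraries outside the tested sums gave the same order where they were deep. In the P3 animal, the hypertrophic library held 1910 Aldh1a3 counts (836.9 CPM of its total), the proliferative library 4 (1.49 CPM) and the resting library 1 (0.458 CPM). In xylene-fixed P28 sections of animal D, the hypertrophic libraries held 171.3, 390.4, 28.8 and 1079 CPM, and the 3 proliferative libraries held 0 in 716282, 1730154 and 1900544 counts. The 28.8 CPM came from the library labelled hypertrophic that held little Col10a1. Animal E held 1094 CPM in its hypertrophic library, 187.4 and 16.2 CPM in 2 proliferative libraries, and 0 in its resting library.

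Where Aldh1a3 appeared outside the hypertrophic zone, Col10a1 was there too. The 3 P28 proliferative sums held 3387, 2725 and 127.5 normalised CPM of Col10a1 in the same order as their Aldh1a3, against 0 to 20.3 in the P2 proliferative sums. The whole list of 4 hypertrophic markers (Col10a1, Ihh, Panx3 and Alpl) summed to 795.1 to 5120 normalised CPM in P28 proliferative and 218.9 to 583.1 in P2 proliferative zone, with all 4 genes counted in both. The P2 proliferative sum was mostly Panx3, with a mean of 407.4 against 7.67 of Col10a1. Mean Panx3 was not higher in hypertrophic than in proliferative zone, at 389.6 against 407.4 at P2 and 845.7 against 1005 at P28. In P28 resting zone the list summed to 45.6 to 8318, the top value being animal A's, with Ihh at 0. The 2 xylene-fixed proliferative libraries of animal E with Aldh1a3 held 2076 and 1516 CPM of Col10a1, against 4.05 to 51.0 in the 3 of animal D without it. The list of 6 osteoblast markers summed to 3655 to 6124 normalised CPM in P28 hypertrophic zone, where 4 of 6 had counts. It summed to 29.4 to 197.5 in P28 proliferative and 35.5 to 296.3 in P28 resting zone. Most of the hypertrophic sum was Ibsp, with means of 4346 in P28 hypertrophic and 18.7 in P28 proliferative zone. Phex held 376.5 and 17.2. Col1a1 (37.4 against 58.4) and Sp7 (1.65 against 18.4) went the other way, and Bglap and Dmp1 were at 0 in P28 hypertrophic zone. At P2 the list summed to 290.9 to 1243 in hypertrophic, 5.53 to 205.2 in proliferative and 11.3 to 552.3 in resting zone. The part of these cells or their RNA in the Aldh1a3 counts was not tested.

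The gene with the pattern most like that of Aldh1a3 over the 21 sums, by Pearson correlation of log2(normalised CPM + 1) among all genes tested, was Col10a1 (r = 0.962, Spearman rho = 0.933). The next were Ptgis, the prostacyclin synthase (r = 0.908, rho = 0.848), and Ihh, the hedgehog ligand of early hypertrophic cells (r = 0.899, rho = 0.853). The points share animals and zones, and these values are descriptions.

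**Figure D2:**
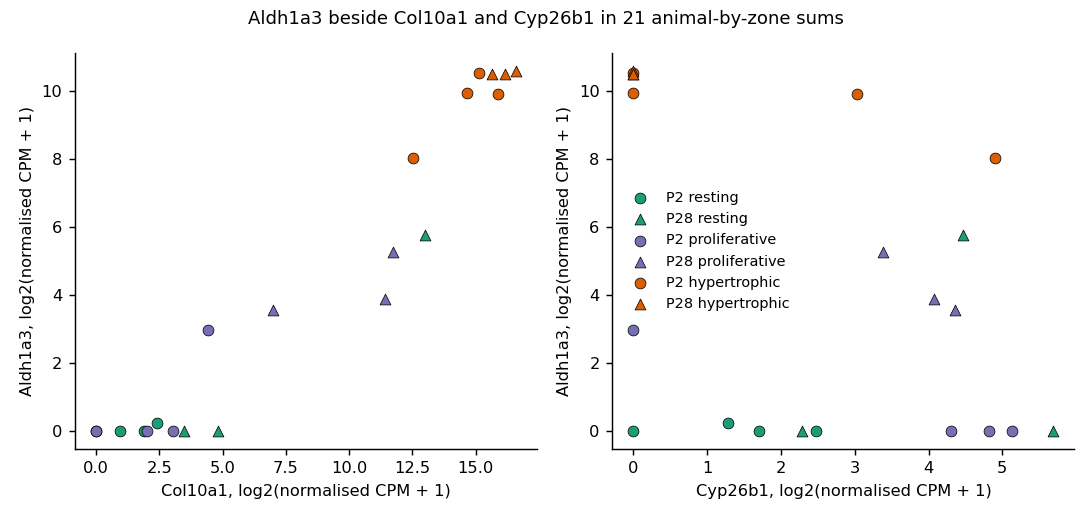
Aldh1a3 (vertical axes) against Col10a1 (left) and Cyp26b1 (right), all as log2(normalised CPM + 1), in 21 sums of 1 animal and zone; colours mark zones, circles P2 and triangles P28. Aldh1a3 climbs with Col10a1 across zones (r = 0.962), including the P28 animal A resting triangle, while 5 of the 7 hypertrophic sums have Cyp26b1 at 0.

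The other enzymes of the last oxidation were scarce in all zones. Aldh1a1 had 13 counts in the 21 sums, spread over 4 sums, with 9 of them in resting and 3 in proliferative zone of P28 animals and 1 in P2 resting zone. Aldh1a2 had 38 counts, 37 of them in the resting sum of P2 animal A (101.2 normalised CPM) and 1 in the proliferative sum of P2 animal D. Of all Aldh1a1, Aldh1a2 and Aldh1a3 counts in the 7 hypertrophic sums, Aldh1a3 made up all at both ages (2740 of 2740 at P2, exact binomial lower bound 99.9%, and 1257 of 1257 at P28, lower bound 99.7%). Counts depend on gene length, and the 4617 exon bases of Aldh1a3 lie between the 2264 of Aldh1a2 and the 4937 of Aldh1a1. In P28 proliferative zone the share was 91.7% of 36 counts (interval 77.5% to 98.2%), and in P28 resting zone 52.6% of 19 counts (28.9% to 75.6%). In xylene-fixed sections, 33 further Aldh1a1 counts came from 1 proliferative library of animal D, and 2 of the 5 hypertrophic libraries held 5 Aldh1a2 counts.

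Cyp26b1, which inactivates retinoic acid, was low everywhere, with means no higher than 25.3 normalised CPM in any group. At P28 the 3 hypertrophic sums held 0 counts, the proliferative sums 9.40, 15.8 and 19.4 normalised CPM, and the resting sums 21.2, 50.7 and 3.89. The hypertrophic sums thus lay below all others at P28, at least 4.32-fold below proliferative zone and 6.61-fold below resting zone when a floor of 3 counts over the group is set against the 27 and 15 counts there. Neither difference passed the test over all genes: the log2 difference was -7.01 ± 3.14 (SE) for hypertrophic against proliferative (edgeR adjusted p = 0.336) and 7.42 ± 3.16 for resting against hypertrophic (edgeR adjusted p = 0.249). Without P28 animal D these were -6.91 ± 4.11 (edgeR adjusted p = 0.711) and 8.34 ± 3.96 (edgeR adjusted p = 0.502). Fitted values against a group at 0 depend on the prior count.

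At P2 the Cyp26b1 levels were 27.4, 18.7, 0 and 34.1 normalised CPM in the proliferative sums of animals A, D, E and G. The resting sums of animals A, D, F and G held 0, 4.54, 2.26 and 1.43, and the hypertrophic sums of A, C, D and G held 0, 28.8, 0 and 7.17, where the 28.8 was 2 counts. Among the 3 animals with all zones, the proliferative sum was the highest in each. Pooled counts gave a resting to proliferative ratio of 0.0659 (18 against 133 counts, counting interval 0.0379 to 0.108). Of the 133 counts, 111 came from animal G, whose resting sum may hold more than 1 animal. The animal-level test gave -3.67 ± 2.02 log2 for resting against proliferative (edgeR adjusted p = 1.0) and -3.42 ± 2.06 for hypertrophic against proliferative (edgeR adjusted p = 0.485).

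Deep libraries outside the tests also put Cyp26b1 mostly outside the hypertrophic zone. The P3 animal held 73 counts in proliferative, 15 in resting and 0 in hypertrophic zone, or 27.2, 6.87 and 0 CPM. Xylene-fixed proliferative libraries of animal D held 4.19, 64.2 and 71.6 CPM, its resting library of 1501478 counts held 48.6, and its 4 hypertrophic libraries held 0 to 11.51. In animal E the proliferative libraries held 10.7 and 0 CPM, the resting library 17.4 and the hypertrophic library 1.51. Cyp26b1 was thus seen in all 3 zones in xylene-fixed sections. Its nearest patterns over the 21 sums were those of Snhg5 (r = 0.770), Mcoln2 (r = 0.766) and Nampt (r = 0.750).

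Rdh10, the retinol dehydrogenase that starts the synthesis, was counted in 9 of 21 sums, most steadily in the P2 resting zone. Its resting sums at P2 held 0, 37.2, 70.0 and 40.3 normalised CPM in animals A, D, F and G. The proliferative sums held 27.4, 0, 0 and 5.84 (A, D, E, G), and the hypertrophic sums 0, 0, 51.7 and 23.4 (A, C, D, G), so all zones overlapped. At P28 it was 0 in all sums but the hypertrophic (21.8) and resting (25.4) sums of animal B. The log2 difference was 0.86 ± 2.45 for resting against proliferative at P2 (edgeR adjusted p = 1.0), and for P28 against P2 in resting zone it was -1.70 ± 1.95 (edgeR adjusted p = 0.892). In xylene-fixed P28 sections Rdh10 had 59 counts in 3 of the 5 proliferative libraries (9.36 CPM pooled), 32 in hypertrophic (3.41) and 10 in resting ones (4.62), so its absence from the P28 proliferative sums did not hold there. Rdh10 in the P3 animal stood at 15.1 CPM in resting, 9.30 in proliferative and 13.6 in hypertrophic zone, close values in 1 library each. Among its nearest patterns were Snx4 (r = 0.775) and Rtl1 (r = 0.732).

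**Figure D3:**
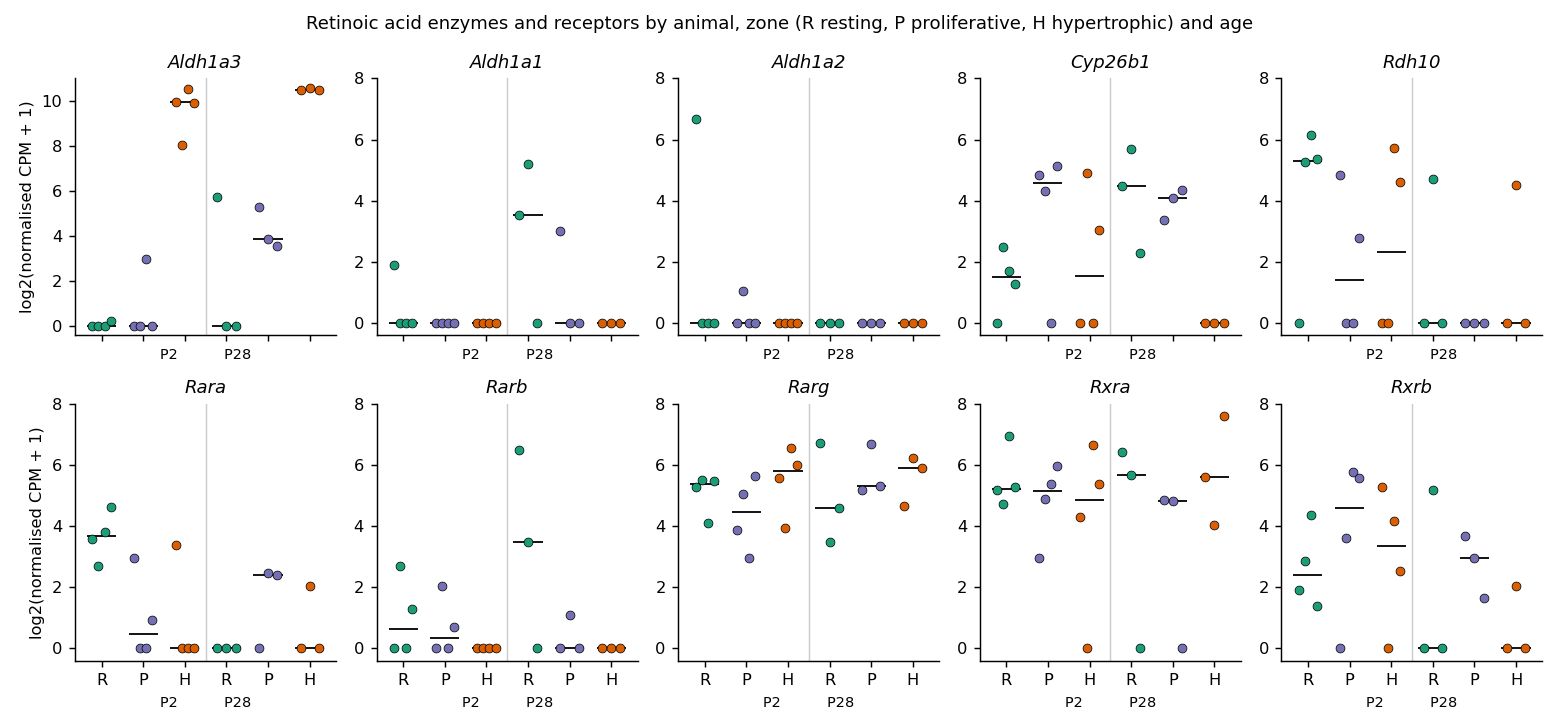
The 10 genes in 21 sums, as log2(normalised CPM + 1) (vertical axes), by zone (R resting, P proliferative, H hypertrophic) at P2 and P28 (horizontal axes); each point is 1 animal and bars are group medians. Aldh1a3 separates the hypertrophic sums from all others, Rarg has counts in all 21 sums, and the points of the remaining genes overlap between most groups.

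Among the receptors, Rarg was the main retinoic acid receptor by counts, present in 21 of 21 sums. Its group means lay between 25.4 ± 19.0 (P2 proliferative) and 59.0 ± 38.1 normalised CPM (P28 proliferative), with overlapping ranges between all neighbours in the order. By animal at P28 it ran from 10.1 to 105.8 in resting, 35.3 to 102.9 in proliferative and 24.1 to 74.9 in hypertrophic zone. The order of its means depends on the scaling. On the totals of the sums, without TMM, P28 hypertrophic zone had the lowest mean of Rarg, 30.9 ± 23.4 CPM. P28 proliferative zone then held 65.4 ± 59.2 and P28 resting zone 74.0 ± 95.5. The log2 difference of Rarg for hypertrophic against proliferative was 1.14 ± 1.33 at P2 and -0.05 ± 1.30 at P28 (edgeR adjusted p = 0.806 and 0.999). These errors leave room for differences of several fold in both directions. Corrected for exon length, Rarg made 81.3% of the counts of the 3 retinoic acid receptors over the 21 sums, Rara 15.9% and Rarb 2.80%.

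Rara, too low for testing, was counted in all 4 P2 resting sums, at 10.9, 5.45, 13.1 and 23.8 normalised CPM (animals A, D, F and G). In the P2 proliferative sums it held 6.84, 0, 0 and 0.922, and in the hypertrophic sums 9.49 in animal A, which was 1 count, and 0 in the others. Summed over animals, P2 resting zone held 172 counts against 4 in proliferative (ratio 20.9, counting interval 8.03 to 77.7). At P28 resting zone held 0 counts, proliferative zone 6 and hypertrophic zone 1. Of the 172 counts, 133 came from P2 animal G, whose resting sum may hold more than 1 animal. The list of 5 perichondrium and fibroblast markers, all with counts, summed to 877.6 to 6249 normalised CPM in P2 resting, 278.0 to 924.5 in P2 proliferative and 180.3 to 894.0 in P2 hypertrophic zone; its part in the Rara and Rdh10 counts of the resting zone was not tested. In the P3 animal, Rara stood at 17.9 CPM in resting, 17.5 in proliferative and 0 in hypertrophic zone, where resting and proliferative zone held close values in 1 library each. In xylene-fixed P28 sections, 55 of the 56 hypertrophic Rara counts of animal D lay in the library with little Col10a1, and the pooled level was 6.47 CPM in resting (14 counts) and 0.952 in proliferative libraries (6 counts).

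Rarb, a receptor that is also a classical target of retinoic acid, had 39 counts in the sums, 17 of them in the resting sum of P28 animal A (90.0 normalised CPM). It was at 0 in all 7 hypertrophic sums, although the P3 hypertrophic library held 16 counts (7.01 CPM) and the proliferative one 27. The overlap with Top2b makes these low counts uncertain. Its promoter is shown because it holds a retinoic acid response element of the kind the receptors bind, 2 half-sites 5 bases apart. Each half-site searched was AGGTCA or AGTTCA with either A or G as the opening letter, the spacer was NNNNN, and the search ran on both strands of 300-base windows (250 before to 50 after the RefSeq start). The element, in capitals, begins 53 bases before the start, within chr14:16575489-16575553 of GRCm38.p6, minus strand.
Rarb: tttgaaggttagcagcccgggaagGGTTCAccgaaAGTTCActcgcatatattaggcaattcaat
Of 32851 promoter windows, 32 (0.0974%) held such an element, and among 15 windows of 8 members Rarb's was the 1 that did. Aldh1a3 and Rdh10 had no window in the table. A match in letters is a description of the sequence and not of binding in these cells.

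The retinoid X receptors were spread over the zones. Rxra was counted in 18 of 21 sums, with group means from 18.5 ± 16.0 (P28 proliferative) to 86.2 ± 95.5 normalised CPM (P28 hypertrophic). The top mean rests on animal D, with 194.9, against 48.2 and 15.6 in animals A and B. On the totals of the sums, without TMM, animal D held 37.0 CPM, and the P28 hypertrophic mean of 32.7 ± 19.1 lay below the 73.7 ± 73.7 of P28 resting zone, so the place of the top mean depends on the scaling. At P2 the resting sum of animal F held 122.4, and those of the other 3 animals 25.4 to 37.9. The log2 difference of hypertrophic against proliferative at P28 was 3.04 ± 1.85 (edgeR adjusted p = 0.539), it was -0.13 ± 1.42 without animal D, and no zone difference of Rxra passed. Its nearest patterns were Wdr26 (r = 0.838, rho = 0.522) and Cand1 (r = 0.831, rho = 0.425).

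Rxrb was highest on average in P2 proliferative zone, at 28.01 ± 26.4 normalised CPM, with 0 in animal E and 54.2 at the top. It was counted in 1 of 3 hypertrophic sums at P28, as 1 count. Xylene-fixed P28 sections held more there, with 114 counts in 5 of 5 hypertrophic libraries (12.1 CPM pooled), beside 7.77 CPM in proliferative and 24.04 in resting ones. The highest of the 5, at 25.8 CPM, was the library with little Col10a1, and the place above proliferative zone leans on it. The resting level came mainly from animal E, with 50 counts (79.2 CPM) against 2 (1.33 CPM) in animal D. In the P3 animal Rxrb stood at 49.5 CPM in resting, 17.1 in proliferative and 9.20 in hypertrophic zone, another order than at P2. The log2 difference of resting against proliferative at P2 was -2.50 ± 2.03 (edgeR adjusted p = 1.0). Length-corrected, Rxra made 73.6% and Rxrb 26.4% of their joint counts over the 21 sums, and in P2 proliferative zone 50.5% and 49.5%. These shares pool raw counts, and in P2 proliferative zone animal G gave 203 of 238 Rxra and 151 of 170 Rxrb counts. Rxrg, the third retinoid X receptor, had 0 counts in the sums. For Rarg the nearest pattern was Nupr1 (r = 0.783), and for Rxrb it was Zadh2 (r = 0.863).

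**Figure D4:**
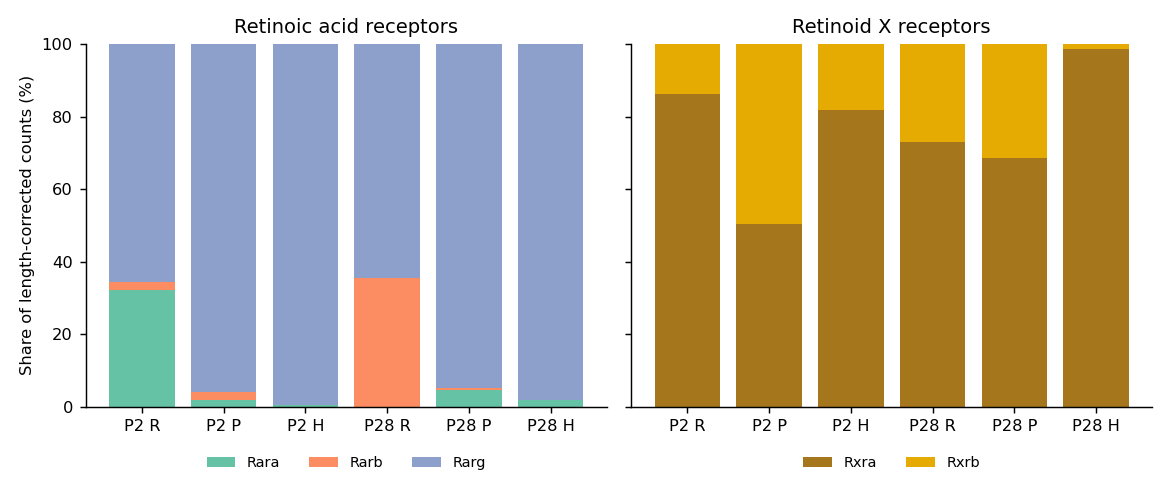
Shares of length-corrected counts, in percent (vertical axes), among the retinoic acid receptors (left) and the retinoid X receptors (right), pooled over animals in each zone at P2 and P28 (R resting, P proliferative, H hypertrophic). Rarg is the largest share in all 6 groups, with Rara at 32.2% in P2 resting and Rarb at 35.4% in P28 resting zone, where 47 counts of the 3 receptors and mainly animal A stand behind the bar.

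Compared per length, over the mean of all 21 sums, Aldh1a3 stood at 84.9 normalised CPM per kb of exon, Rarg at 10.5, Rxra at 8.46, Rdh10 at 3.47, Rxrb at 3.14, Cyp26b1 at 2.18 and Aldh1a2 at 2.15. Rarb (1.01), Rara (0.900) and Aldh1a1 (0.539) were the lowest members. The Aldh1a3 mean comes from the hypertrophic zone, at 199.3 (P2) and 319.7 (P28) per kb: in the other groups it was 0.00969 to 4.48, below the 5.95 to 13.9 of Rarg over the groups. The Aldh1a2 value rests on 1 sum.

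Of the 10 members, 6 passed the filter on low counts in the zone fit, and 4 (Aldh1a1, Aldh1a2, Rara and Rarb) did not and have no test. In hypertrophic against proliferative zone 1 of the 6, Aldh1a3, was past the threshold of an edgeR adjusted p under 0.05 at P2, where 2.31% of the 6958 genes tested were, and again at P28, where 1.12% were. In resting against hypertrophic zone it was also 1 of 6, Aldh1a3, at P2 (background 3.77%) and at P28 (background 1.77%). Since Aldh1a3 was chosen by such values, nothing is read from these counts. In resting against proliferative zone 0 of 6 members passed at P2 (background 0.259%) and at P28 (background 0.561%), with 0 at an unadjusted p under 0.05 and 0 by DESeq2 at both ages. The lowest adjusted p among the members other than Aldh1a3, over the 6 zone comparisons, was the 0.249 of Cyp26b1. For hypertrophic against proliferative zone, the median log2 difference of the 5 tested members other than Aldh1a3 was 0.76 at P2 and -0.05 at P28, beside -0.36 and -0.52 over all genes tested.

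**Figure D5:**
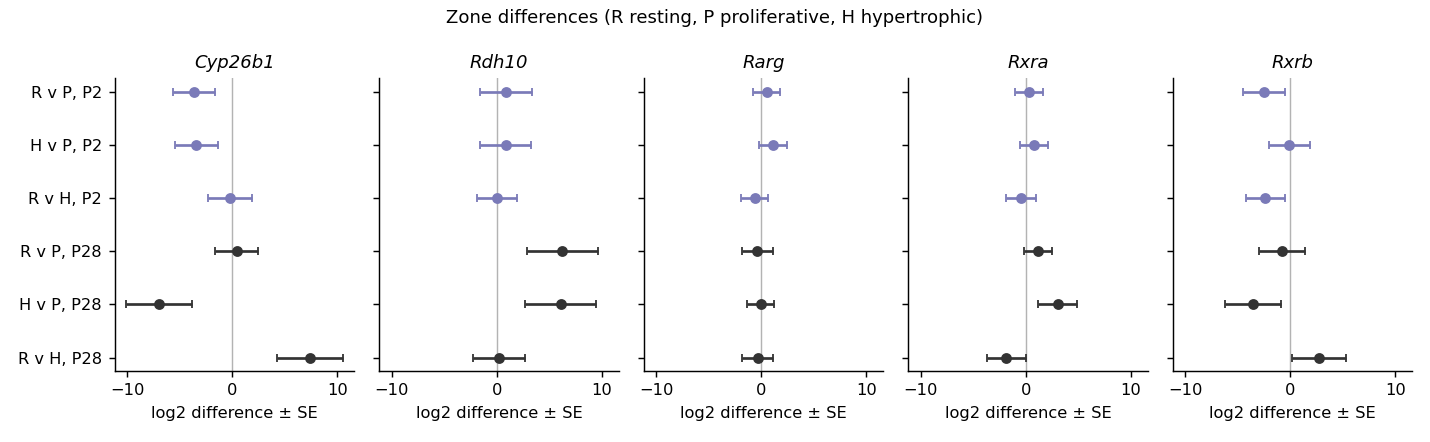
Log2 differences ± SE (horizontal axes) of the 5 tested members other than Aldh1a3 in the 6 zone comparisons (rows; R resting, P proliferative, H hypertrophic), P2 in blue and P28 in black. The widest bars belong to Cyp26b1 and Rdh10 at P28, where 1 group is at 0, and Rarg lies within 1.2 of 0 throughout; none of the 30 estimates passed.

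Aldh1a3 had counts in 4 of 6 sums outside the hypertrophic zone at P28 and in 2 of 8 at P2. The age difference (P28 minus P2) of its hypertrophic against proliferative value was -6.44 ± 1.48 log2, that of resting against hypertrophic 4.59 ± 1.43 and that of resting against proliferative -1.85 ± 1.45. These contrasts contain the P2 values by which Aldh1a3 was chosen, so they are descriptions with no test, and fitted values against a group near 0 depend on the prior count. For the first, 0 of 6 members passed, where 0.0% of the genes tested did; 413 genes had an unadjusted p under 0.05, and DESeq2 called 74 genes and 0 members. For the other pair of age differences 0 of 6 members passed as well, with backgrounds of 0.273% for resting against hypertrophic and 0.144% for resting against proliferative zone.

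Within a zone, no member passed between P28 and P2. In hypertrophic zone 0.102% of 1963 genes passed, and Aldh1a3, whose P2 values there were used to choose it, gave 0.70 ± 0.73 log2, a description. In resting zone 0 of 3 tested members passed (background 0.872% of 3327 genes), and in proliferative zone 0 of 4 (background 0.679% of 4712 genes). In the 3 zones 0 members had an unadjusted p under 0.05 and 0 were called by DESeq2. The lowest adjusted p was 0.892, for Rdh10 in resting zone.

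Of 42 other listed genes of the retinoid pathway, 41 were in the table, 9 of those had 0 counts in the sums, and 12 were tested in the zone fit. Tgm2, a transglutaminase known as a retinoic acid response gene, was lower in resting than in hypertrophic zone at P2, with a log2 difference of -6.14 ± 1.86 (edgeR adjusted p = 0.0325). Its hypertrophic sums held 66.4, 0, 157.7 and 91.7 normalised CPM in animals A, C, D and G, and its resting sums 2.73, 0.908, 0 and 1.07 in A, D, F and G. Animal C, at 0, overlaps the resting sums, and the other 3 lie above them. Animals C and F do not enter the tested difference. The adjusted p of Tgm2 was 0.336 without P2 animal D, 0.385 without G, 0.0630 without A, 0.0621 without P28 animal B and 0.108 with no filter on low counts. At P28 the Tgm2 difference was -4.33 ± 1.96 (edgeR adjusted p = 0.287).

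Rbp4, the carrier of retinol in blood, was the other pathway gene that passed, lower in resting than in hypertrophic zone at P28 (edgeR adjusted p = 0.0285). Its hypertrophic sums held 192.8, 265.3 and 2.47 normalised CPM in animals A, B and D, its proliferative sums 9.40, 7.92 and 4.32, and its 3 resting sums 0. Against a floor of 3 counts over the group, resting zone was at least 27.8-fold lower, from 0 against 110 counts, of which 109 came from animals A and B. The adjusted p of Rbp4 was 0.275 and 0.390 when P28 animal A or B was left out, 0.0685 without P2 animal D, 0.0511 with RLE scaling and 0.0935 with no filter on low counts. It was 0.331 and 0.718 with library minimums of 50000 and 200000 counts. At P2 all 4 hypertrophic sums had counts, from 32.0 to 208.7, against 0 to 46.5 in resting zone, and the difference of -3.45 ± 1.63 did not pass (edgeR adjusted p = 0.246).

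Over the 12 tested pathway genes, 0 rose and 1 fell in each of the resting against hypertrophic comparisons, beside backgrounds of 3.77% at P2 and 1.77% at P28, and 0 passed in the other zone and age comparisons, where backgrounds ran from 0.0% to 2.31%. Without P28 animal D, 2 passed at P2, Tgm2 and Meis2 (edgeR adjusted p = 0.00621 and 0.0172); Meis2, a homeobox transcription factor, was named after its value was seen. Meis2 did not pass the low-count filter in the reported fit. It averaged 116.6 ± 201.1 normalised CPM in P2 hypertrophic zone, from 0 to 417.4 by sum, and 1.13 ± 2.26 in P2 resting zone. At P2 the median of the 12 tested pathway genes was 0.23 log2 for resting against hypertrophic, beside 0.52 over all genes, and at P28 it was -0.22 beside -0.27. Receptor cofactors were among the most abundant of the list. The corepressor Ncor1 averaged 126.8 normalised CPM over the sums, and the coactivator Ncoa3 averaged 37.7. Ncor1 had counts in all 21 sums, with group means between 78.9 ± 41.5 (P28 resting) and 208.8 ± 150.6 (P28 hypertrophic). Ncoa3 held 72.3 ± 86.6 in P2 hypertrophic and 17.4 ± 23.2 in P2 resting zone, a difference that did not pass (-3.76 ± 1.84, edgeR adjusted p = 0.269) and that DESeq2 called (adjusted p = 0.00311). The other Cyp26 genes were nearly absent, with 6 counts of Cyp26a1 and 1 of Cyp26c1 in the 21 sums.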

How the data were processed

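Raw counts of reads per gene symbol, as deposited by the authors, fill a table of 100 columns. The tools named were STAR 2.5.2b, featureCounts 1.5.3, Subread and cutadapt, and the build was mm10, per the submitters' processing notes. What annotation, multimapping and strand settings were used is not given in the sources used here. The SMART-seq2 method marks no strand, and near-identical genes can share reads. Columns that share a title (32 of 68 libraries have 2) were summed as repeat runs: a chi-square comparison gave at most 1.03 per gene over 50 or more genes. Labels that differ by a trailing number were counted as 1 animal.

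Ethanol-fixed P2 and P28 libraries of at least 100000 counts were summed per animal and zone (6 P2 and 3 P28 animals). Tests were run in edgeR 4.0.16 under R 4.3.3 (TMM, filterByExpr, robust quasi-likelihood F-test, Benjamini-Hochberg over all genes tested, threshold 0.05). The fit was also run on simulated counts. That simulation had no animal effect and changed only genes among the more abundant, so no conclusion on the members is drawn from it. Zone effects within each age and their age differences came from 1 fit with the animal as a block and 8 residual degrees of freedom. P2 animals C, E and F, with 1 sum each, are absorbed by their block terms and enter no zone difference. The fits of P28 against P2, 1 per zone, had a term for the deposit set (coded description or none) and 4 residual degrees of freedom. Spread is moderated across genes, and p-values measure spread between these animals. Each standard error is the log2 difference divided by the root of its F statistic. The pairing comes from the labels, read without their trailing numbers. Deviations from group means correlated by -0.00200 to 0.184 between zones of an animal, and by no more than 0.0488 at P28. By Xist and Y-linked counts, the zones of P28 animal D may not share an animal. The resting and hypertrophic sums of P28 animal A, whose labels differ by a trailing number, may also come from different animals. Intervals on pooled counts are exact, at 95%, and cover counting error only.

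The named genes were all 10 members, each listed pathway gene past the threshold, and the 5 pathway genes with the highest mean; for likeness, the 3 genes with the highest Pearson correlation per tested member were found. Some genes these rules name are not reported here. The members and lists were chosen with earlier results of these data known. Alternatives were RLE scaling, no filter on low counts, DESeq2 1.42.0, library minimums of 50000 and 200000, leaving out Rn45s, Lars2 and Glra2, each animal left out, trailing numbers as separate animals, no block and no deposit set term. Gene coordinates and coding sequences are from GENCODE M21, promoters from RefSeq. Xylene and P3 libraries were described and not tested. All columns were used.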

Additional observations from a re-analysis of the deposited data

Results flagged for a closer look

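In groups of 4 animals, 1 sum lay far from the other 3 in 8 of 26 groups looked at, where chance gives about 1 in 20 for continuous values; that rate does not apply to groups in which most values are 0. Of these, 6 were 1 count against 0 or nearly 0 in the other animals. They were Aldh1a1 in P2 resting animal A (2.73 normalised CPM), Aldh1a2 in P2 proliferative animal D (1.04), Aldh1a3 in P2 proliferative animal E (6.78) and in P2 resting animal G (0.179), and Rara in P2 hypertrophic animal A (9.49) and P2 proliferative animal A (6.84). The other 2 had more counts: Aldh1a2 in P2 resting animal A stood at 101.2 normalised CPM (37 counts), and Rxra in P2 resting animal F at 122.4 (271 counts).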

How the results depend on the processing

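The count of members past the threshold was recomputed 204 times, over 17 alternatives per comparison, and 201 of these equalled the reported count. The reported count was 1, Aldh1a3, in the 4 zone comparisons with hypertrophic zone and 0 in the others. Since Aldh1a3 was chosen by its zone values, its staying past the threshold is not read as support, and its ranges below are descriptions. The exceptions concern Aldh1a3, which was chosen on P2 values in these contrasts, so nothing is read from them: for the age difference of hypertrophic against proliferative the count was 1 with a minimum of 200000 counts, and it ranged from 0 to 1 when animals were left out, as it did for resting against hypertrophic (1 without P28 animal D in both). Without the replicate block the count stayed at 1 in each of the 4 comparisons with hypertrophic zone and at 0 in the others. The Aldh1a3 difference of hypertrophic against proliferative ran from 10.67 to 13.42 log2 at P2 and from 6.13 to 7.31 at P28, and resting against hypertrophic from -12.37 to -11.62 and from -13.64 to -6.33. Of 978 estimates for members that did not pass, 83 changed sign. RLE scaling moved the median of all genes by up to 0.57 log2 (resting against proliferative at P28). Of the pathway genes, Tgm2 and Rbp4 lost their calls as given beside their values. Depth limits the low members: 25 of 51 ethanol-fixed libraries were too shallow to test, and many member values rest on fewer than 10 counts. Groups hold 3 or 4 animals, and the P2 zone tests rest on 3.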
